A study of Homo sapiens with 12 samples.

Results

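The genes described here are the metalloproteinases of the MMP, ADAM and ADAMTS families, their inhibitors of the TIMP family, the plasminogen activators PLAU and PLAT with the receptor PLAUR, and BMP1 with the tolloid-like TLL1 and TLL2. They were taken by gene symbol from the probe annotation of the series, as MMP, ADAM or ADAMTS followed by a number, TIMP1 to TIMP4 and the 6 further symbols, and ADAMTSL genes were not included. This gave 68 genes, each with 1 probe set, of 17687 named genes in all. By role they were 22 MMP, 19 ADAM, 18 ADAMTS, 3 TIMP, 3 plasminogen activation genes and 3 genes of the BMP1 and tolloid group. TIMP2 and ADAMTS7 had no named probe set and were not analysed here.

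All cultures were derived from MCF-10A, an established line of breast epithelial cells that does not form tumours. One line carries HER2 L755S, a change in the kinase domain of the receptor tyrosine kinase HER2, and the other PIK3CA E545K, a change in the PI3K catalytic subunit, a lipid kinase. RNA of the HER2-mutant line grown alone, the PIK3CA-mutant line grown alone and the co-culture of both was measured on 4 arrays each. Per the labels' protocols, every culture received EGF at a physiologic concentration and was harvested on days 7 to 14, and the co-culture was about 75% HER2-mutant cells at harvest by droplet digital PCR. Nothing in the labels says that the 4 arrays of a group came from separate cultures or clones, so the p-values measure the spread between these arrays, which may be technical. MCF-10A cells without either mutation were not analysed here, and the probe sets of ERBB2 and PIK3CA were not used, so the genotypes were not checked on the arrays. The harvest day of each array was not given. The co-culture RNA is a bulk sample of both lines, in which fewer cells of a line and less RNA per cell cannot be told apart.

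As background, the MMPs are zinc-dependent enzymes that cut matrix proteins and one another's proforms, the ADAMs are mostly membrane proteins that shed growth factors and receptors from the cell surface, and the ADAMTS enzymes are secreted and act on proteoglycans and procollagens. TIMPs bind and block many of these enzymes. PLAU and PLAT turn plasminogen into plasmin, PLAUR holds PLAU at the cell surface, and BMP1 and the tolloids trim procollagens and release growth factors from their antagonists. In breast epithelium these enzymes are known for remodelling of the basement membrane and for the release of ligands of the EGF receptor.

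Most of these genes were not detected above the array background. A gene was counted as above background in a group when its log2 signal was over the 95th percentile of the 612 negative control probe sets on all 4 arrays of the group. That threshold lay at 6.73 to 7.12 on the HER2-mutant arrays, 6.32 to 6.39 on the PIK3CA-mutant arrays and 6.37 to 6.66 on the co-culture arrays. By it, 13 of the 68 genes (19.1%) were above background in each group, and they were the same 13 genes in all 3 groups. Of all named genes, 43.2% were above background in the HER2-mutant group, 49% in the PIK3CA-mutant group and 47.4% in the co-culture. The 13 genes were the inhibitors TIMP1 and TIMP3, the plasminogen activation genes PLAU, PLAUR and PLAT, the MMPs MMP14 and MMP28, the ADAMs ADAM9, ADAM10, ADAM15 and ADAM17, and BMP1 and TLL1.

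The other 55 genes were not above background in any group, which bounds their level and does not show that they were silent. Among them were all 18 ADAMTS genes, with signals of 2.17 to 5.54 over the 12 arrays. The 20 remaining MMPs gave 2.35 to 6.52, the 15 remaining ADAMs 2.52 to 7.23, TLL2 5.51 to 7.18 and TIMP4 4.55 to 5.21. They include 9 MMPs that lie next to each other on chromosome 11 in RefSeq's gene order, namely MMP7, MMP20, MMP27, MMP8, MMP10, MMP1, MMP3, MMP12 and MMP13, and their signals ran from 2.69 to 5.21. This group holds the collagenases MMP1, MMP8 and MMP13 and the stromelysins MMP3 and MMP10. Closest to the threshold stood ADAM32, above it on 2 of 4 HER2-mutant arrays and 1 of 4 co-culture arrays, and TLL2, above it on 1 HER2-mutant array. With the 99th percentile of the controls as threshold, 11 of the 68 genes were above background, and with the 30th percentile of the array's named probe sets 27 were.

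**Figure D1:**
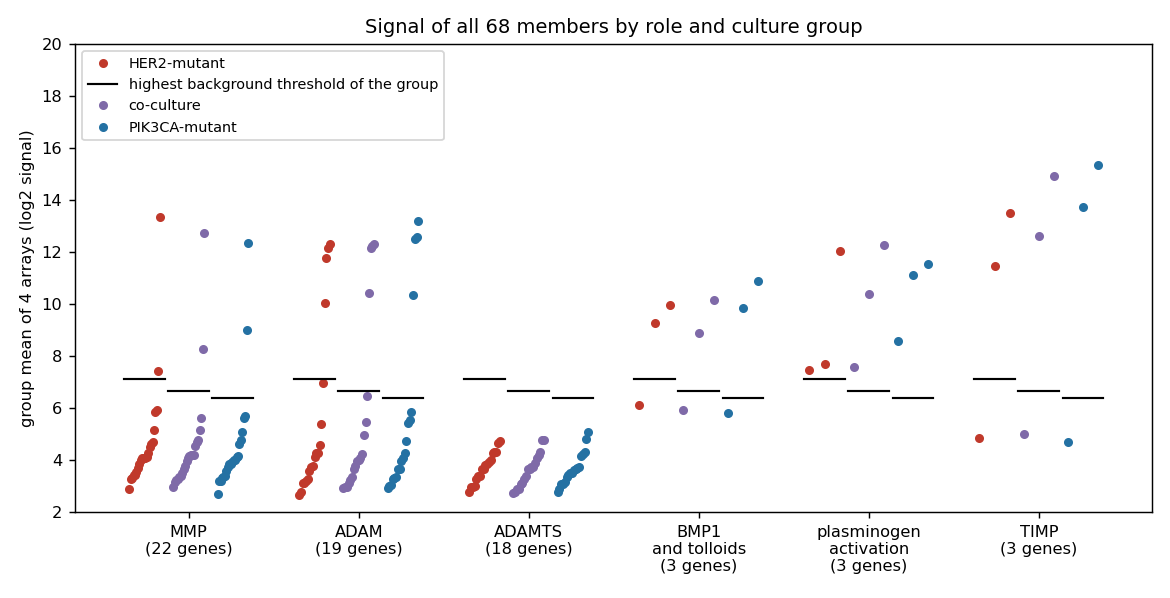
Mean log2 signal of the 4 arrays of a group (vertical axis) for each of the 68 genes, arranged by role and culture group. The bar over each cluster is the highest background threshold of the group; the 18 ADAMTS genes all lie under it, and the 13 genes above it are the same in each group.

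The promoters of 4 genes are shown. TIMP1 had the largest difference between the lines, and TIMP3 and TLL1 were the genes lower in the co-culture than in both lines. PLAUR differed between the PIK3CA-mutant line and both other groups. So did other genes, ADAM15 among them, whose window is not shown and held none of the 3 motifs marked below. RefSeq's promoter table held 41 of the 68 genes and 9 of the 13 above background. Each window runs 5′ to 3′ on the gene's own strand over 300 bases, 250 before and 50 after the RefSeq start, in GRCh38.p14. The windows are chrX:47582186-47582485 on the plus strand for TIMP1, chr22:32801455-32801754 on the plus strand for TIMP3, chr19:43670120-43670419 on the minus strand for PLAUR and chr4:165872987-165873286 on the plus strand for TLL1. Capitals mark matches, on either strand, to the AP-1 motif TGANTCA, the ETS core AGGAAG and the TATA motif TATAAA.
TIMP1: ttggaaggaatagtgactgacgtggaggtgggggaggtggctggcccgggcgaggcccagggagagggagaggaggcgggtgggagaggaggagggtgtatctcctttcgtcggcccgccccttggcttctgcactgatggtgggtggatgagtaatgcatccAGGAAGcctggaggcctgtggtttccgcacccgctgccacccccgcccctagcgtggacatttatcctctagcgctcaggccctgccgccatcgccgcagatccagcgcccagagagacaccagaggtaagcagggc
TIMP3: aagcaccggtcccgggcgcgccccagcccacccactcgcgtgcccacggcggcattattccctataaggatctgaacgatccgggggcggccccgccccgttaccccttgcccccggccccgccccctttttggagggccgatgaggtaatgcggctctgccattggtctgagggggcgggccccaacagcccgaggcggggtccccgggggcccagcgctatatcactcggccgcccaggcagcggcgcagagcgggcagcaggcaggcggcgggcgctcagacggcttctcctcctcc
PLAUR: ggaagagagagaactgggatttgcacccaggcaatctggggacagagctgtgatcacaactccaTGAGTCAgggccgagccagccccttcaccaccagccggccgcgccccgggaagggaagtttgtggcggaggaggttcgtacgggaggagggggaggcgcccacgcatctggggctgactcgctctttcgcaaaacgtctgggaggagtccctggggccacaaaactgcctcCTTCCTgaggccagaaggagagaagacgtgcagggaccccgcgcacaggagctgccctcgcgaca
TLL1: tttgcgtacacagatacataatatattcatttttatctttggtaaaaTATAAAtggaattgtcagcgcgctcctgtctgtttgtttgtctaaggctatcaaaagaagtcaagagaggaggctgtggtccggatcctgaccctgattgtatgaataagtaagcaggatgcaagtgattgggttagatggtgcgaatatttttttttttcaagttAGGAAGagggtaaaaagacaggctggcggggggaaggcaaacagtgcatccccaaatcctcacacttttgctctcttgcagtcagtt
The AP-1 motif was in 1 of the 9 windows, that of PLAUR, 186 bases before the start, and in 7.71% of all 35116 promoters of the table. The ETS core was in 6 of the 9 windows, those of ADAM10, ADAM17, PLAU, PLAUR, TIMP1 and TLL1, against 33.6% of all promoters. The TATA motif was in the TLL1 window alone among the 9, 203 bases before the start, against 11.5% of all promoters. The TIMP3 window held none of the 3 motifs. These are matches of letters, the motifs do not overlap one another in the windows shown, and nothing was measured at these sites.

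The array medians were 6.41 to 6.49 and those of the negative controls 3.39 to 3.79, no pair of arrays was identical, and within a group the lowest correlation between arrays was 0.991. The marker lists were chosen with earlier results of these data known. Of them, all 7 breast epithelial markers with a named probe set were above background, 0 of 8 endothelial markers, 3 of 10 fibroblast markers (COL1A2, DCN and FAP) and 3 of 8 blood markers (CD14, CD68 and CSF1R). PTPRC, the marker shared by blood leukocytes, was not above background in any group. The summed level of the blood list, on the log2 scale, was 8.36 to 8.52 on the HER2-mutant arrays, 9.62 to 9.88 on the PIK3CA-mutant arrays and 9.41 to 9.55 on the co-culture arrays. That of the fibroblast list was 10.98 to 11.35, 11.42 to 11.68 and 11.37 to 11.85 in the same order, that of the endothelial list 7.77 to 8.10, 7.75 to 7.90 and 7.69 to 7.82, and that of the breast epithelial list 17.60 to 17.70, 18.02 to 18.10 and 17.65 to 17.70. The part of these differences in the results below was not tested.

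The first comparison asked how the proteases and inhibitors differ between the lines grown alone. The PIK3CA-mutant line had the higher signal of TIMP1, PLAT, BMP1, MMP28, ADAM15, PLAUR, ADAM10 and ADAM17, and the HER2-mutant line that of MMP14 and PLAU. TIMP3, ADAM9 and TLL1 did not pass the test. Tests were moderated fits in limma over 12758 genes past a filter on low signal, two-sided, called at a Benjamini-Hochberg adjusted p under 0.05. Of the 13 genes above background, 10 were called, of which 2 were higher and 8 lower in HER2-mutant cells, and 5 of the 10 had a log2 difference of at least 1 in size. Among the 8879 genes above background in at least 1 group, 2353 were called in the same fit with a difference of at least that size. The background is high: over all genes tested 59.5% were called, 30% higher and 29.5% lower there, and over the 8879 genes above background in at least 1 group, tested among themselves, 71.5% were called. The median difference, HER2-mutant minus PIK3CA-mutant, was −0.82 over the 13 genes and 0.05 over all genes tested. These sets are unlike, since all genes tested include genes not above background, whose differences the signals understate. Of the 68 genes, 28 passed the filter, and 15 of these were called, including 5 not above background in any group (MMP3, MMP19, ADAM12, ADAM19 and ADAM32). MMP19 and ADAM12 passed the filter through the arrays of 1 group alone, so nothing is read from the counts over the 28.

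The other comparisons set the co-culture against each line and share arrays with the first one, so their values are given side by side and not as independent evidence. Against the HER2-mutant line, 9 of the 13 genes were called, 6 higher and 3 lower in the co-culture, where 51.0% of all genes tested were called, 24.9% higher and 26% lower, and 63.5% of the genes above background. Against the PIK3CA-mutant line, 12 of the 13 were called, 2 higher and 10 lower in the co-culture, where 25.7% of all genes tested were called, 11.1% higher and 14.6% lower, and 35.4% of the genes above background. With 1 array left out at a time this count was 8 to 12, where 21.8% to 27.6% of all genes tested were called. ADAM9, ADAM10, MMP14 and TIMP1 lost the call without PIK3CA-mutant array 3, and also with no trend of the spread. The median differences over the 13 genes were 0.21 against the HER2-mutant line and −0.73 against the PIK3CA-mutant line, with −0.05 and −0.02 over all genes tested. Here too all genes tested include genes not above background. Several calls against the PIK3CA-mutant line were small, and against a margin of 0.5 on the log2 scale 4 of the 13 passed there, where 3.44% of all genes tested did, and 5 of the 13 against the HER2-mutant line, where 17.8% did. Of the 28 genes that passed the filter, 11 were called against the HER2-mutant line and 14 against the PIK3CA-mutant line. The 14 became 9 without PIK3CA-mutant array 3, and 9 with no trend of the spread. Of all genes tested, 22.3% and 23.4% were called under these 2 settings. The 11 include MMP19 and the 14 include ADAM12, which passed the filter through 1 group alone, so nothing is read from these counts either.

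**Figure D2:**
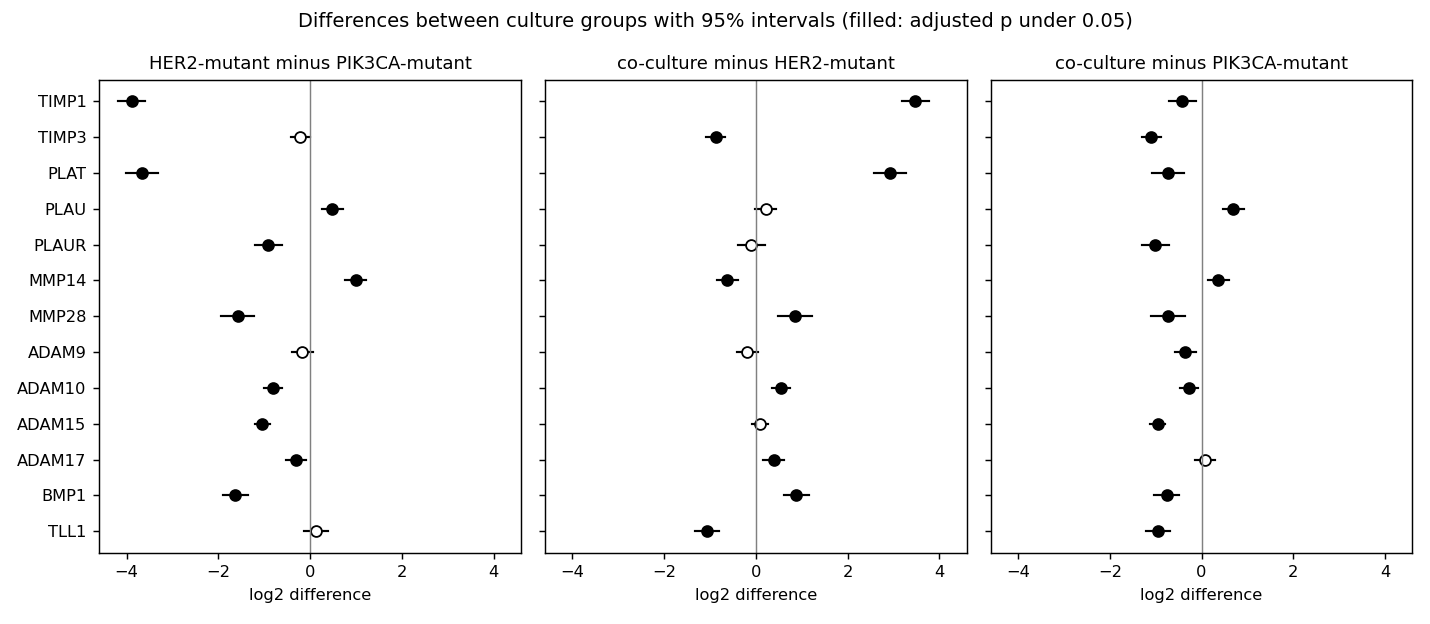
Log2 differences between culture groups (horizontal axis) for the 13 genes above background, as limma estimates with unadjusted 95% intervals, and filled points where the adjusted p was under 0.05. TIMP1 and PLAT lie farthest from 0 in both comparisons with the HER2-mutant line, while TIMP3 and TLL1 lie under 0 in both comparisons of the co-culture.

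Among the inhibitors, TIMP1, a secreted inhibitor of most soluble MMPs, had the largest difference between the lines of all 13 genes. Its log2 signal was 11.53, 11.11, 11.63 and 11.51 on the HER2-mutant arrays, 15.04, 15.48, 15.69 and 15.13 on the PIK3CA-mutant arrays and 15.24, 14.74, 15.11 and 14.59 on the co-culture arrays. The 4 HER2-mutant arrays lay far below all others, and the co-culture overlapped the PIK3CA-mutant line. The group means were 11.44 ± 0.23, 15.34 ± 0.30 and 14.92 ± 0.31 (SD, n = 4). TIMP1 was 14.9-fold lower in the HER2-mutant than in the PIK3CA-mutant line, a log2 difference of −3.89 (SE 0.14) with a limma adjusted p of 1.25e-16, and 11.1-fold higher in the co-culture than in HER2-mutant cells (limma adjusted p 1.76e-15). Between co-culture and PIK3CA-mutant line the difference was −0.42 (SE 0.14) with a limma adjusted p of 0.0335. That last call was lost without PIK3CA-mutant array 2 or 3 or co-culture array 2 or 4, with limma adjusted p of 0.101, 0.15, 0.109 and 0.144, and with no trend of the spread (0.106) or a robust spread (0.0981).

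TIMP3, which binds to the matrix and also blocks several ADAMs including ADAM17, took another course. Its signal was 13.49, 13.36, 13.54 and 13.59 on the HER2-mutant arrays, 13.82, 13.57, 13.85 and 13.61 on the PIK3CA-mutant arrays and 12.53, 12.34, 12.80 and 12.78 on the co-culture arrays. All 4 co-culture arrays were lower than every array of both lines, whose own ranges overlapped. The means were 13.49 ± 0.10, 13.71 ± 0.15 and 12.62 ± 0.22 (SD, n = 4). In the co-culture TIMP3 was 1.84-fold lower than in the HER2-mutant line, a log2 difference of −0.88 (SE 0.10, limma adjusted p 9.5e-08), and 2.14-fold lower than in the PIK3CA-mutant line (limma adjusted p 2.5e-08). Between the lines the difference was −0.22 (SE 0.10), with a 95% interval of −0.42 to −0.01 and a limma adjusted p of 0.0644, and it passed without HER2-mutant array 4 (0.0471), PIK3CA-mutant array 2 (0.0388) or co-culture array 2 (0.0423), in a fit of only these 2 groups (0.0353) and with the replicate block (0.0281).

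Of the plasminogen activators, PLAT, the tissue-type activator, was low in the HER2-mutant line. Its signal was 7.28, 7.26, 7.18 and 8.16 on the HER2-mutant arrays, 11.08, 10.98, 11.10 and 11.35 on the PIK3CA-mutant arrays and 10.50, 10.61, 10.28 and 10.19 on the co-culture arrays. The 3 groups did not overlap, and the co-culture lay between the lines. The means were 7.47 ± 0.46, 11.13 ± 0.16 and 10.39 ± 0.19 (SD, n = 4). PLAT was 12.6-fold lower in the HER2-mutant than in the PIK3CA-mutant line, a log2 difference of −3.66 (SE 0.17, limma adjusted p 9.42e-15), 7.6-fold higher in the co-culture than in HER2-mutant cells (limma adjusted p 1.07e-12) and 1.66-fold lower in the co-culture than in PIK3CA-mutant cells (limma adjusted p 0.00223). The signals on HER2-mutant arrays 1 to 3, 7.18 to 7.28, lie close to the background thresholds of 6.73 to 7.12 in that group. Array 4, at 8.16, lies farther above them.

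PLAU, the urokinase activator that acts mainly at the cell surface, had a smaller difference in the other direction. Its signal was 11.72, 12.31, 12.08 and 12.03 on the HER2-mutant arrays, 11.51, 11.59, 11.78 and 11.33 on the PIK3CA-mutant arrays and 12.25, 12.22, 12.21 and 12.31 on the co-culture arrays. The 4 co-culture arrays were within 0.1 of each other and above all PIK3CA-mutant arrays, while the 2 lines overlapped. PLAU was 1.4-fold higher in the HER2-mutant than in the PIK3CA-mutant line (limma adjusted p 0.00064) and 1.62-fold higher in the co-culture than in PIK3CA-mutant cells (limma adjusted p 5.12e-05). Against the HER2-mutant line the difference was 0.21 (SE 0.11), with a 95% interval of −0.02 to 0.44 and a limma adjusted p of 0.117, and it passed without HER2-mutant array 2 (0.0257).

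PLAUR, the receptor that holds PLAU at the cell surface, was higher in the PIK3CA-mutant line than in both other groups. Its signal was 7.55, 7.82, 7.71 and 7.63 on the HER2-mutant arrays, 8.80, 8.35, 8.51 and 8.71 on the PIK3CA-mutant arrays and 7.45, 7.77, 7.73 and 7.38 on the co-culture arrays. The PIK3CA-mutant arrays lay above all others, and the co-culture overlapped the HER2-mutant line. PLAUR was 1.88-fold lower in the HER2-mutant than in the PIK3CA-mutant line (limma adjusted p 8.71e-06) and 2.01-fold lower in the co-culture than in PIK3CA-mutant cells (limma adjusted p 1.35e-05). Between co-culture and HER2-mutant line it was −0.10 (SE 0.14), with a 95% interval of −0.40 to 0.20 (limma adjusted p 0.6). The HER2-mutant signals of PLAUR, 7.55 to 7.82, lie near the background thresholds of 6.73 to 7.12 on those arrays.

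**Figure D3:**
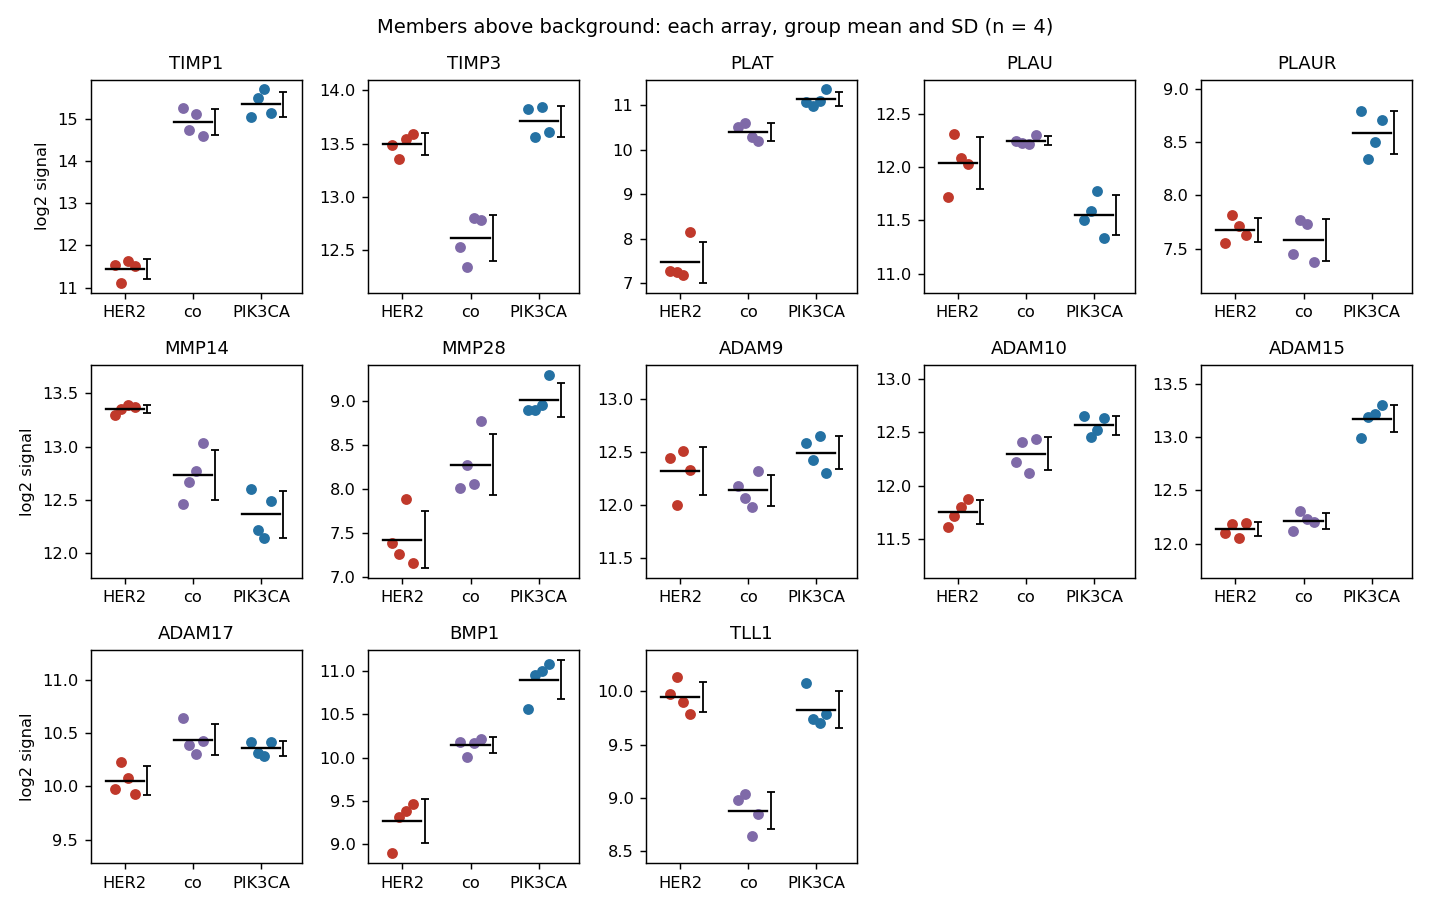
Log2 signal (vertical axis, with its own range in each panel) on each array for the 13 genes above background, by culture group, with group means as lines and bars of 1 SD (n = 4). PLAT, MMP28, BMP1 and ADAM10 have a co-culture between the lines without overlap, and TIMP3 and TLL1 have a co-culture below both.

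MMP14, a membrane-anchored collagenase that activates pro-MMP2 at the cell surface, was the only MMP other than MMP28 above background. Its signal was 13.30, 13.35, 13.39 and 13.37 on the HER2-mutant arrays, 12.60, 12.22, 12.14 and 12.48 on the PIK3CA-mutant arrays and 12.46, 12.66, 12.77 and 13.03 on the co-culture arrays. The HER2-mutant arrays were the highest, within 0.1 of each other, and the co-culture overlapped the PIK3CA-mutant line. MMP14 was 1.99-fold higher in the HER2-mutant than in the PIK3CA-mutant line, by 0.99 (SE 0.11) on the log2 scale (limma adjusted p 4.35e-08), and 1.54-fold lower in the co-culture than in HER2-mutant cells (limma adjusted p 4.8e-05). Over the PIK3CA-mutant line the co-culture was higher by 0.37 (SE 0.11, limma adjusted p 0.0145), a call that was lost without PIK3CA-mutant array 2 (0.0542) or 3 (0.0679), without co-culture array 4 (0.0753) and with no trend of the spread (0.0559).

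MMP28, or epilysin, a secreted MMP found in epithelia, had the opposite order. Its signal was 7.39, 7.27, 7.89 and 7.16 on the HER2-mutant arrays, 8.90, 8.89, 8.95 and 9.29 on the PIK3CA-mutant arrays and 8.01, 8.27, 8.06 and 8.77 on the co-culture arrays. The 3 groups did not overlap. MMP28 was 3-fold lower in the HER2-mutant than in the PIK3CA-mutant line, a log2 difference of −1.58 (SE 0.18, limma adjusted p 5.37e-08), 1.8-fold higher in the co-culture than in HER2-mutant cells (limma adjusted p 0.000315) and 1.66-fold lower in the co-culture than in PIK3CA-mutant cells (limma adjusted p 0.00332). Its HER2-mutant signals, 7.16 to 7.89, lie close to the background thresholds of 6.73 to 7.12 on those arrays.

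The 4 ADAMs above background are membrane proteases, and ADAM15 was the one with the largest difference between the lines. The signal of ADAM15, a membrane protein with an integrin-binding domain, was 12.10, 12.19, 12.05 and 12.19 on the HER2-mutant arrays, 12.99, 13.19, 13.22 and 13.30 on the PIK3CA-mutant arrays and 12.12, 12.30, 12.23 and 12.20 on the co-culture arrays. The PIK3CA-mutant arrays were all higher than the other 8, and the co-culture overlapped the HER2-mutant line. ADAM15 was 2.06-fold lower in the HER2-mutant than in the PIK3CA-mutant line, a log2 difference of −1.04 (SE 0.08, limma adjusted p 2.06e-10), and 1.94-fold lower in the co-culture than in PIK3CA-mutant cells (limma adjusted p 1.43e-08). Co-culture and HER2-mutant line differed by 0.08 (SE 0.08), with a 95% interval of −0.09 to 0.25 (limma adjusted p 0.44).

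ADAM10 and ADAM17 are the principal sheddases of ligands of the EGF receptor and of Notch. ADAM10 measured 11.61, 11.71, 11.80 and 11.87 on the HER2-mutant arrays, 12.65, 12.46, 12.52 and 12.63 on the PIK3CA-mutant arrays and 12.22, 12.41, 12.12 and 12.44 on the co-culture arrays. It did not overlap between any pair of groups, with the co-culture between the lines. ADAM10 was 1.76-fold lower in the HER2-mutant than in the PIK3CA-mutant line (limma adjusted p 6.58e-08) and 1.46-fold higher in the co-culture than in HER2-mutant cells (limma adjusted p 2.89e-05). Against the PIK3CA-mutant line the difference was −0.27 (SE 0.09, limma adjusted p 0.0355). That call was lost without PIK3CA-mutant array 1, 3 or 4 (limma adjusted p 0.101, 0.0542 and 0.0957) or co-culture array 1 or 3 (0.0849 and 0.144), with quantile normalization (0.0521) and with no trend of the spread (0.0847).

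ADAM17, also called TACE, measured 9.98, 10.23, 10.08 and 9.92 on the HER2-mutant arrays, 10.42, 10.31, 10.28 and 10.42 on the PIK3CA-mutant arrays and 10.64, 10.39, 10.30 and 10.42 on the co-culture arrays. The HER2-mutant arrays were below all others, and the other 2 groups overlapped. ADAM17 was lower in the HER2-mutant than in the PIK3CA-mutant line, a log2 difference of −0.31 (SE 0.11, limma adjusted p 0.0167, and 0.0689 with quantile normalization) and higher by 0.39 (SE 0.11) in the co-culture than in HER2-mutant cells (limma adjusted p 0.00412). Co-culture and PIK3CA-mutant line differed by 0.08 (SE 0.11), with a 95% interval of −0.14 to 0.30 (limma adjusted p 0.659).

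ADAM9, a sheddase with a broad set of substrates, had the smallest difference between the lines of the 4 ADAMs. Its signal was 12.45, 11.998, 12.51 and 12.33 on the HER2-mutant arrays, 12.58, 12.43, 12.65 and 12.30 on the PIK3CA-mutant arrays and 12.18, 12.06, 11.99 and 12.32 on the co-culture arrays, and all 3 groups overlapped. The co-culture was lower than the PIK3CA-mutant line, with a log2 difference of −0.35 (SE 0.11, limma adjusted p 0.0192). This call was lost without PIK3CA-mutant array 1 (0.0606) or 3 (0.0741), without co-culture array 2 (0.0564) or 3 (0.0746) and with no trend of the spread (0.0614). Between the lines the difference was −0.17 (SE 0.11), with a 95% interval of −0.40 to 0.06 (limma adjusted p 0.191), and between co-culture and HER2-mutant line −0.18 (SE 0.11), with an interval of −0.41 to 0.04 (limma adjusted p 0.171, and 0.0226 without HER2-mutant array 2 and 0.0203 with quantile normalization).

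BMP1 and TLL1 are related proteases that cut the C-terminal propeptides of procollagens, and they differed in their pattern. BMP1 measured 8.89, 9.31, 9.38 and 9.47 on the HER2-mutant arrays, 10.57, 10.95, 10.999 and 11.08 on the PIK3CA-mutant arrays and 10.18, 10.001, 10.17 and 10.21 on the co-culture arrays. The 3 groups did not overlap, and the co-culture lay between the lines. BMP1 was 3.11-fold lower in the HER2-mutant than in the PIK3CA-mutant line, a log2 difference of −1.64 (SE 0.13, limma adjusted p 2.27e-10), 1.84-fold higher in the co-culture than in HER2-mutant cells (limma adjusted p 6.41e-06) and 1.69-fold lower in the co-culture than in PIK3CA-mutant cells (limma adjusted p 0.000138).

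TLL1 measured 9.97, 10.13, 9.90 and 9.79 on the HER2-mutant arrays, 10.08, 9.74, 9.70 and 9.79 on the PIK3CA-mutant arrays and 8.98, 9.04, 8.65 and 8.85 on the co-culture arrays. The lines overlapped, and every co-culture array was lower than every array of both. TLL1 was 2.1-fold lower in the co-culture than in HER2-mutant cells, a log2 difference of −1.07 (SE 0.12, limma adjusted p 1.55e-07), and 1.93-fold lower than in the PIK3CA-mutant line (limma adjusted p 4.8e-06). Between the lines the difference was 0.12 (SE 0.12), with a 95% interval of −0.14 to 0.38 (limma adjusted p 0.417).

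Counted by overlap of arrays, 9 of the 13 genes did not overlap between the lines, 9 between co-culture and HER2-mutant line, and 9 between co-culture and PIK3CA-mutant line. Over all genes tested, 53%, 44.4% and 28.3% did not overlap in the same comparisons, and over the genes above background 64.5%, 55.1% and 36.1%. TIMP3 and TLL1 are in both co-culture counts and not in the first. PLAT, MMP28, BMP1 and ADAM10 are in all 3. PLAU is in the last alone, and ADAM9 is in none.

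Of the 5 genes that were called between the lines without being above background, no fold is given, since both groups have only a bound. MMP19 measured 5.64, 5.58, 5.87 and 6.52 on the HER2-mutant arrays, 3.96 to 4.06 on the PIK3CA-mutant arrays and 3.74 to 4.26 on the co-culture arrays. Its HER2-mutant arrays were higher than all others, and it passed the filter only through them, so its calls are not used. ADAM12 measured 3.05 to 3.99, 4.58 to 5.07 and 3.70 to 4.33 in the same order. It passed the filter only through its PIK3CA-mutant arrays, and its calls are likewise not used. ADAM19 measured 4.41 to 4.74, 5.12 to 5.83 and 4.82 to 5.26 and passed between the lines (limma adjusted p 0.000313). ADAM32 measured 6.78 to 7.23, 5.25 to 6.31 and 6.15 to 6.92. It passed between the lines (limma adjusted p 8.47e-05) and in both co-culture comparisons (0.047 and 0.0396), and both co-culture calls were fragile. That against HER2-mutant cells was lost without HER2-mutant array 1 or 3, PIK3CA-mutant array 2 or co-culture array 1, 3 or 4 (limma adjusted p 0.0521 to 0.145), and that against PIK3CA-mutant cells without PIK3CA-mutant array 2 or 4 or co-culture array 2, 3 or 4 (0.0582 to 0.182). MMP3 passed between the lines (limma adjusted p 0.0413) and lost that call without HER2-mutant array 1, 3 or 4 or PIK3CA-mutant array 1 or 2 (0.0771 to 0.114).

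The co-culture was next set against a blend, the level that a mixture of 75% HER2-mutant and 25% PIK3CA-mutant RNA, taken from the lines grown alone, would give on the linear scale. TIMP1, PLAT, PLAU, ADAM17 and ADAM10 were above that level and TLL1, TIMP3, MMP14, PLAUR and ADAM15 below it. Of the 13 genes, 10 were called, 5 higher and 5 lower, where 40.8% of all genes tested were called, 18.5% higher and 22.3% lower, and 53.2% of the genes above background. The median difference from the blend was 0.27 over the 13 genes and −0.05 over all genes tested, which include genes not above background. Against a margin of 0.5, 7.93% of all genes tested passed and 4 of the 13, which were TIMP1, PLAT, TIMP3 and TLL1. The blend assumes equal RNA per cell in both lines, which was not measured.

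TIMP1 and PLAT stood farthest above the blend. The expected level of TIMP1 was 13.60, and the co-culture was 2.49-fold above it, by 1.32 (SE 0.13) on the log2 scale (limma adjusted p 3.83e-08). The expected level of PLAT was 9.44, and the co-culture was 1.94-fold above it, by 0.96 (SE 0.16, limma adjusted p 2.98e-05). The size depends on the assumed share of HER2-mutant cells. With 65% in place of 75% the differences were 0.93 for TIMP1 and 0.58 for PLAT, and with 85% they were 1.86 and 1.47, all called.

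The other genes above the blend were closer to it. The difference was 0.32 (SE 0.10) for PLAU (limma adjusted p 0.0149), 0.30 (SE 0.09) for ADAM17 (0.0133) and 0.30 (SE 0.08) for ADAM10 (0.00512). PLAU lost the call without HER2-mutant array 1 (limma adjusted p 0.0578) and with quantile normalization (0.0652), and ADAM17 without co-culture array 1 (0.0726). The ADAMs did not move together, since ADAM15 and ADAM9 differed from the blend by −0.26 and −0.23, of which that of ADAM9 was not called.

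Below the blend, TLL1 differed by −1.04 (SE 0.11, limma adjusted p 1.28e-07) and TIMP3 by −0.94 (SE 0.09) (1.57e-08). The lines differed by 0.12 in TLL1 and by −0.22 in TIMP3, and the assumed share moved the differences little, to between −1.05 and −1.03 for TLL1 and between −0.96 and −0.91 for TIMP3. MMP14 differed by −0.43 (SE 0.10, limma adjusted p 0.00169), PLAUR by −0.39 (SE 0.13) (0.0172) and ADAM15 by −0.26 (SE 0.07) (0.00668). The calls of PLAUR and ADAM15 were lost with a share of 85% (limma adjusted p 0.0872 and 0.164), and that of PLAUR without co-culture array 1 (0.0629) or 4 (0.0749).

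MMP28, BMP1 and ADAM9 did not pass against the blend. Their differences were 0.27 (SE 0.15) with a 95% interval of −0.05 to 0.58 (limma adjusted p 0.179), 0.27 (SE 0.11) with 0.03 to 0.50 (0.0668) and −0.23 (SE 0.10) with −0.43 to −0.03 (0.0679). With a share of 85%, MMP28 (limma adjusted p 0.0158) and BMP1 (0.00154) passed, and BMP1 also passed without HER2-mutant array 4 (0.0364) and with the replicate block (0.0383). ADAM9 passed without HER2-mutant array 2 (limma adjusted p 0.00962), PIK3CA-mutant array 4 (0.0499) or co-culture array 4 (0.0347) and with quantile normalization (0.0125).

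**Figure D4:**
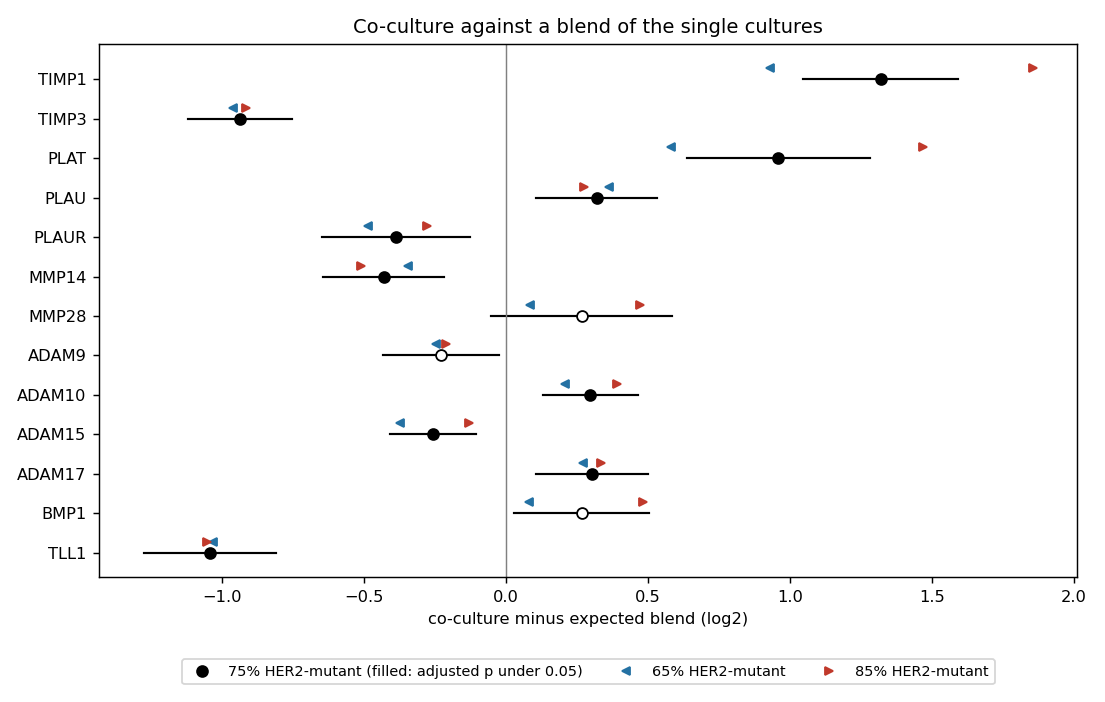
Co-culture minus expected blend on the log2 scale (horizontal axis) for the 13 genes above background, with unadjusted 95% intervals for a blend of 75% HER2-mutant cells and triangles for 65% and 85%. TIMP1 and PLAT lie farthest above 0 and move most with the assumed share, and TIMP3 and TLL1 lie near −1 at every share.

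For the 5 genes above background with a log2 difference between the lines of at least 1 in size, the place of the co-culture was expressed on the linear scale as a percentage of the way from the HER2-mutant to the PIK3CA-mutant mean, where the blend would give 25%. This is a description with no test. TIMP1 stood at 73.2% (56.8% to 93.3% over the 4 co-culture arrays) and PLAT at 56.7% (48.0% to 67.2%). MMP28 stood at 40.3% (25.0% to 76.8%), BMP1 at 39.7% (31.6% to 44.1%) and ADAM15 at 5.50% (−0.74% to 11.9%). ADAM15 was the lowest of the 5 and lay near the HER2-mutant line. Over the 2353 such genes of the whole array the median was 69.6% with quartiles of 49.99% and 86.7%, so TIMP1 and PLAT were within the quartiles, and MMP28, BMP1 and ADAM15 were under the lower one.

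The last comparison asked which genes had a co-culture level above both lines or below both. TIMP3 and TLL1 were the 2 of the 13 genes called outside both lines, both lower, where 1.85% of all genes tested were called, 1.00% higher and 0.847% lower, and 2.62% of the genes above background. The smaller of the differences to a line was −0.88 for TIMP3 (limma adjusted p 7.84e-06, on the larger p of both contrasts) and −0.95 for TLL1 (5.49e-05). Both calls held under every alternative run, with each array left out in turn included. The other 11 genes above background were not called outside both lines.

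The other genes of pericellular proteolysis were read from 4 lists, which were chosen with earlier results of these data known. They are counted over the list members past the filter, beside the shares of all genes tested. These counts include genes not above background. Of all genes tested, 59.5% were called between the lines. For the co-culture, 51.0% were called against the HER2-mutant line, 25.7% against the PIK3CA-mutant line, 40.8% against the blend and 1.85% outside both lines. Between the lines, with only genes above background tested, 1 was higher and 7 lower in HER2-mutant cells of 10 plasminogen partners, and 5 and 4 of 17 regulators. In the same way it was 5 and 10 of 20 other proteases and inhibitors, and 6 and 14 of 21 shed substrates. Of all genes above background, 71.5% were called there. Among 16 partners of the plasminogen system, 2 were higher and 7 lower in HER2-mutant than in PIK3CA-mutant cells, with a median difference of −0.20. The co-culture had 6 higher and 3 lower against the HER2-mutant line, 1 higher and 9 lower against the PIK3CA-mutant line, 4 higher and 2 lower against the blend, and 2 lower than both lines, ITGB1, an integrin subunit (−0.55, limma adjusted p 8.54e-06), and PLGRKT, a plasminogen receptor that was not above background (0.0362). That last count was 1 without each array in turn other than HER2-mutant array 4, PIK3CA-mutant array 2 and co-culture array 4. SERPINE2, the serpin protease nexin that inhibits PLAU, PLAT and plasmin, was not above background in the HER2-mutant line. It was at least 19.9-fold higher in the PIK3CA-mutant line (limma adjusted p 1.22e-18) and at least 8.34-fold higher in the co-culture (1.05e-16), where the bound sets the bright group's mean against the mean background threshold of the dim group's arrays. For each fold given as a bound, here and below, the p-value tests the difference of the signals as measured and not the bound. TFPI2, a secreted inhibitor of plasmin, was at least 3.17-fold higher in the PIK3CA-mutant than in the HER2-mutant line (limma adjusted p 9.37e-14). ITGA3, an integrin subunit, was lower in the HER2-mutant line with a log2 difference of −1.32 (SE 0.09, limma adjusted p 6.62e-12), and LRP1, the endocytic receptor that clears protease complexes, was higher there by 1.23 (SE 0.15) (3.11e-07).

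Among 23 regulators of metalloproteinases, 6 were higher and 5 lower in HER2-mutant than in PIK3CA-mutant cells, with a median of 0.14. The co-culture had 5 higher and 8 lower against the HER2-mutant line, 3 higher and 3 lower against the PIK3CA-mutant line, 2 higher and 8 lower against the blend, and 0 outside both lines. Of all genes tested, 59.5%, 51.0%, 25.7%, 40.8% and 1.85% were called in these 5 comparisons. TFPI2 and LRP1 belong to this list as well. TSPAN5, a tetraspanin that escorts ADAM10 to the cell surface, was at least 1.72-fold higher in the PIK3CA-mutant than in the HER2-mutant line (limma adjusted p 5.6e-09) and at least 1.38-fold higher in the co-culture than in HER2-mutant cells (1.68e-07). SPOCK1, a matrix proteoglycan, was higher in the HER2-mutant than in the PIK3CA-mutant line by 1.32 (SE 0.25, limma adjusted p 7.18e-05). The list also holds FURIN, the convertase that activates MMP14 and many ADAMs, which was lower in the HER2-mutant line with a log2 difference of −1.25 (SE 0.15, limma adjusted p 1.71e-07).

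Among 27 other pericellular proteases and their inhibitors, 8 were higher and 10 lower in HER2-mutant than in PIK3CA-mutant cells, with a median of −0.15. The co-culture had 10 higher and 11 lower against the HER2-mutant line, 5 higher and 7 lower against the PIK3CA-mutant line, 7 higher and 11 lower against the blend, and 2 higher and 1 lower than both lines. Of all genes tested, 59.5%, 51.0%, 25.7%, 40.8% and 1.85% were called in these 5 comparisons. Above both lines were PI3 and SLPI, secreted inhibitors of neutrophil elastase, with differences of 1.15 and 0.46 (limma adjusted p 0.00286 and 0.0123), and below both was MME, a membrane endopeptidase, with −0.90 (0.027). Without PIK3CA-mutant array 1 or co-culture array 2 the count outside both was 1. FAP, a membrane serine protease that is also on the fibroblast marker list, was at least 18.4-fold higher in the PIK3CA-mutant than in the HER2-mutant line (limma adjusted p 1.29e-17) and at least 18.7-fold higher in the co-culture than in HER2-mutant cells (2.85e-17). DCN, another gene of that marker list, went the other way, with 10.70 ± 0.19 in HER2-mutant and 7.07 ± 0.34 in PIK3CA-mutant cells (SD, n = 4). CTSV, a lysosomal cysteine protease, was at least 5.61-fold higher in the PIK3CA-mutant line (limma adjusted p 1.38e-16) and CST6, a cystatin that inhibits it, at least 1.60-fold (1.14e-11). ANPEP, a membrane aminopeptidase, was lower in the HER2-mutant line with a log2 difference of −1.81 (SE 0.12, limma adjusted p 5.52e-12).

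Among 25 proteins known to be shed by ADAMs or MMPs, 6 were higher and 15 lower in HER2-mutant than in PIK3CA-mutant cells, with a median of −0.39. The co-culture had 13 higher and 6 lower against the HER2-mutant line, 2 higher and 7 lower against the PIK3CA-mutant line, 12 higher and 6 lower against the blend, and 1, the EGF receptor ligand EPGN, lower than both lines (−0.47, limma adjusted p 0.0446). That last count was 0 without each array in turn other than HER2-mutant array 2 and co-culture array 4. Of all genes tested, 59.5%, 51.0%, 25.7%, 40.8% and 1.85% were called in these 5 comparisons. HBEGF, a ligand of the EGF receptor, was at least 36.1-fold higher in the PIK3CA-mutant than in the HER2-mutant line (limma adjusted p 1.42e-15) and at least 18.4-fold higher in the co-culture than in HER2-mutant cells (6.26e-14). TGFA, another such ligand, was lower in the HER2-mutant line with a log2 difference of −2.01 (SE 0.19, limma adjusted p 4.48e-09), and L1CAM, an adhesion molecule, with a log2 difference of −2.71 (SE 0.18) (8.56e-12). IL6R, the receptor of interleukin 6, was higher in HER2-mutant cells by 2.51 (SE 0.14, limma adjusted p 1.73e-13).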

How the data were processed

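The authors deposited 1 log2 signal per probe set and array, for which the submitters' processing notes name the Transcriptome Analysis Console. Its version, the genome build and the methods of background correction, summarization and normalization are not given in the sources used here. The labels' protocols give column-purified RNA, 5 µg of it, labelled by a whole-transcript kit. These deposited log2 values were used as they stand, with no pseudocount, and arrays were grouped by their labels. Precision is limited by the 4 arrays per group.

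Of 24351 probe sets, 17709 were named for 1 gene, covering 17687 genes. The brightest probe set stood for the 20 genes with several, none of them described here. Genes over the 30th percentile of the array's named probe sets on at least 4 of 12 arrays were kept (12758). That percentile was first taken over all probe sets, and the change was made after those results were seen. limma 3.58.1 in R 4.3.3 fitted the 3 groups to all 12 arrays with a trend of the spread, two-sided, with Benjamini-Hochberg adjustment over all genes tested. The blend used the delta method, and a gene outside both lines took the larger p of both contrasts. Differences and folds are of log2 signals, which understate changes of dim genes. The script was tested on simulated data.

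The genes, the pathway lists (plasminogen system partners, regulators of metalloproteinases, other pericellular proteases and inhibitors, shed substrates) and the marker lists (breast epithelial, fibroblast, endothelial, blood) were chosen with earlier results of these data known. The rule for named genes gave, by role, the genes above background that passed with the largest differences, and up to 4 genes a list, to which ITGB1, PLGRKT, PI3, SLPI, MME, EPGN, FURIN and DCN were added after their values were seen. Alternatives were the filter, normalization, moderation, samples in the fit, replicate block, margin of 0.5, blend share, background threshold and each array left out. The replicate numbers did not pair the arrays.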

Additional observations from a re-analysis of the deposited data

Results flagged for a closer look

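In the PIK3CA-mutant group, MMP28 on array 4 stood apart from the other 3 arrays, with a log2 signal of 9.29 against 8.89 to 8.95. In the HER2-mutant group, PLAT on array 4 stood apart, with 8.16 against 7.18 to 7.28. In both cases the gap to the nearest array, divided by the range of the 4 arrays (0.844 for MMP28 and 0.893 for PLAT), was over Dixon's 95% critical value for 4 samples. Of 39 groups checked, 13 genes in 3 culture groups, 2 did so (5.13%), and chance gives about 1 in 20. The called differences of MMP28 and PLAT between the culture groups stayed called without these arrays.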

How the results depend on the processing

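The 28 tested genes include MMP19 and ADAM12, which passed the filter through 1 group alone, so nothing is read from counts over the 28. Counts of called genes among the 28 tested and the 13 above background stayed within 1.5 times the reported one under all alternatives run except these. Against a margin of 0.5 on the log2 scale, 6 of the 28 tested genes and 5 of the 13 above background passed between co-culture and HER2-mutant line, 4 and 4 between co-culture and PIK3CA-mutant line, and 5 and 4 against the blend, where 17.8%, 3.44% and 7.93% of all genes tested passed. With no trend of the spread, 9 of the 28 passed between co-culture and PIK3CA-mutant line, where 23.4% of all genes tested did. Leaving out 1 array at a time gave 9 to 14 there, and 8 to 12 of the 13 above background. The 9 came without PIK3CA-mutant array 3, where 26 were tested and 22.3% of all genes tested were called. With the 30th percentile of the array as threshold, 27 of the 68 genes were above background. The difference of ADAM15 between co-culture and HER2-mutant line changed sign with quantile normalization, to −0.024 (limma adjusted p 0.835); it was not called either way. The causes were not tested.

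Over single genes and alternatives, 1356 values kept direction and side of the threshold, 79 lost the call (the margin of 0.5 included), 16 gained it and 1 changed sign. Differences of genes not above background that were not called were left out of this count, a choice made after seeing that they only changed sign near 0. The pathway lists moved too, in the order plasminogen partners, regulators, other proteases and shed substrates. Against a margin of 0.5, the regulators, other proteases and shed substrates had 5, 11 and 13 called between the lines, and all 4 lists had 3, 2, 11 and 9 for the co-culture against the HER2-mutant line, 4, 2, 3 and 3 against the PIK3CA-mutant line and 0, 0, 6 and 5 against the blend. The lists had 16, 23, 27 and 25 genes tested. Of all genes tested, 27.6%, 17.8%, 3.44% and 7.93% passed that margin in the same comparisons. Outside both lines, no trend of the spread gave 1 plasminogen partner, 1 other protease and 0 shed substrates, the filter at the negative controls 1 partner, quantile normalization 1 regulator and no filter 0 shed substrates. Under these settings 1.14%, 2.62%, 1.83% and 1.24% of all genes tested were called. Leaving out 1 array at a time gave 1 to 2 partners, 0 regulators, 1 to 3 other proteases and 0 to 1 shed substrate there, where 1.19% to 1.83% of all genes tested were called. With the replicate block, 16, 11, 14, 12 and 2 of the 28 genes were called between the lines, for the co-culture against the HER2-mutant line, the PIK3CA-mutant line and the blend, and outside both lines. Of all genes tested, 59.6%, 51%, 26.1%, 41.2% and 1.9% were called with that block, in the same order. Same-numbered arrays deviated together with r of −0.03 to 0.06 over 12 pairs, and 2 of 12 arrays were nearest to their own number. Taking the percentile of the filter over all probe sets, an alternative chosen after seeing the data, changed none of the 5 counts of called genes. Quantile normalization and centring moved the median difference of all genes by at most 0.03. Signal over background limits what can be said of the 55 dim genes.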
